A study of Rattus norvegicus with 9 samples.

Results

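Ion channels of the potassium, sodium, calcium and chloride families were followed on 9 single-colour arrays of duct tissue from the developing kidney. Embryos were Sprague-Dawley rats, taken on embryonic day 13. The set was taken by gene symbol, without regard to signal: probe sets with 1 symbol beginning with Kcn and a family letter, Kcnip, Scn, Scnn1, Cacna, Cacnb, Cacng, Clcn, Ano, Trpc, Trpm, Trpv or Pkd. It holds 219 of the 31099 probe sets, which stand for 143 of 14217 named genes, and 51 of the genes have more than 1 probe set. Each of 3 tissues had 3 arrays. The Wolffian duct (WD) runs along the embryo's trunk as a simple epithelial tube. Its outgrowth, the ureteric bud (UB), invades the nearby mesenchyme and branches into the collecting system. For the last tissue, WD with mesoderm, mesodermal cells were left on the duct. RNA came from pools, of about 100 pieces for UB and for WD and of about 50 for WD with mesoderm. UBs were freed from the kidney by a light trypsin digestion and WDs were isolated without it, so that digestion and tissue cannot be told apart. All animals share 1 strain and age, with no genetic change or drug named in the labels.

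Ion channels are membrane proteins that let ions pass down their gradient. Voltage-gated channels for potassium, sodium and calcium make nerve and muscle excitable, inward rectifier and leak potassium channels set the resting potential, and chloride channels, anoctamins and TRP channels serve secretion, cell volume and sensing. In the mature kidney the collecting duct, which descends from the ureteric bud, takes up sodium through the epithelial sodium channel ENaC and secretes potassium. Pkd1 and Pkd2 encode the polycystins, and mutation of either gives cystic kidneys.

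Signals are intensity units on a linear scale. All differences are log2(signal + 46), first-named tissue minus second, and a gene was called at an adjusted p under 0.05 in limma's test over 20330 probe sets. Arrays of 1 tissue correlated at 0.932 to 0.978 over these probe sets, and all arrays share 1 trimmed mean. Weak signals were lower on the UB arrays: the 40th percentile of an array was 269.9 to 329 in UB, 469 to 569 in WD and 331 to 536 in WD with mesoderm. For the spiked control transcripts, bioC over bioB was 2.83 to 3.11 on UB, 1.04 to 1.25 on WD, and, with mesoderm, 1.17 and 1.30 on replicates 1 and 2 but 3.02 on replicate 3. The beta-actin 3' to 5' ratio was 1.48 to 2.30 in UB, 2.19 to 4.87 in WD and 1.47 to 1.92 in WD with mesoderm. The parts of the weak-signal level, the spike ratio and the actin ratio in the results were not tested beyond added settings. For the ratios these were a term for arrays with a bioC over bioB ratio above 2 (the spike term) and the actin ratio as a covariate. For the weak-signal level the arrays were rescaled, by quantile normalization or by centring each array on its median. The tissue labels were checked on defining markers. Ret, the GDNF receptor of the duct, had means of 45203 in UB, 7298 in WD and 1937 in WD with mesoderm. In UB against WD, 6 of 6 bud tip genes were called higher (13.4% of all genes were). Duct epithelium genes went both ways there: of 13 tested, 3 were higher and 5 lower (19.6% of all genes were lower), with a median of -0.15. The summed signal of 10 mesenchyme genes was 12471 to 17624 in UB, 105672 to 147033 in WD and 256325 to 311459 in WD with mesoderm, well above UB also in the WD labelled as bare. Fewer cells of a type and less RNA per cell cannot be told apart in these pools.

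Most of the channel genes gave little signal in these tissues. A gene was tested where its brightest probe set lay above the array's 40th percentile on at least 3 of 9 arrays. That held for 62 of 143 channel genes (43.4%), against 10800 of all 14217 genes (76.0%). Of the 81 channel genes below the filter, 55 passed the percentile on no array, 18 on 1 and 8 on 2. Among them were 21 of 31 voltage-gated potassium channel genes, 10 of 15 inward rectifiers, 7 of 11 2-pore leak channels, 9 of 14 calcium channel accessory genes and 6 of 9 voltage-gated sodium channel pores. Some channels of the mature kidney were in this class: Kcnj1, the renal outer medullary potassium channel, did not exceed 75.4 on any array and Kcnj10 did not exceed 271. Scnn1a, the alpha subunit of ENaC, reached 647 on 1 array. The beta and gamma subunits of ENaC, Scnn1b and Scnn1g, passed the filter, as did Kcnj15, Kcnk1, Kcnk5, Trpv5 and Trpv6. No detection calls were used, so the filter does not tell the genes below it from background or show that they were absent. Fitted with no filter, 27 of 143 channel genes were called lower in UB than in WD (15.0% of all genes were). Of the genes below the filter these took in Clcn4, Kcnj12, Kcnj16, Kcnk9, Kcnq1, Kcnv1, Scn3b, Trpv1 and Trpv2. In that fit 4 were higher with mesoderm than in WD (4.35% of all genes were), Trpc6 among them. Of the 62 tested genes, 27 lay above the percentile on all 9 arrays. Another 10 passed the filter on no UB array, so the filter itself admitted them through the other tissues, while 0 passed through UB alone.

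The first comparison sets the bud against the duct that gives rise to it. The chloride channel Ano1, the A-type potassium channel Kcnd3, the T-type calcium channels Cacna1g and Cacna1h, the sodium channels Scn1a and Scn9a, their partner Scn4b and the gamma subunit of ENaC, Scnn1g, were called lower in UB, by 4.77-fold to 19.1-fold on the log2(signal + 46) scale. Of these 8 genes, 6 (Kcnd3, Cacna1g, Scn1a, Scn9a, Scn4b and Scnn1g) had no UB array above its 40th percentile, so the size of their fall rests in part on the pseudocount. Kcna2, a delayed rectifier potassium channel, was 7.61-fold higher. Kcnk1, a leak channel, was 1.79-fold and Kcne3, an accessory subunit, 1.91-fold higher. Of 62 tested channel genes 3 were called higher (4.84%, where 13.4% of all 10800 genes were) and 20 lower (32.3%, where 19.6% of all genes were). The median difference was -0.51 over the channel genes and -0.075 over all genes. The 3 UB arrays lay wholly above the 3 WD arrays for 6 channel genes (22.1% of all genes) and wholly below for 31 (29.7% of all genes), 37 in all, where 51.8% of all genes did not overlap. Without UB replicate 1 the lower calls numbered 13 (13.4% of all genes were). In 9 of the 20 lower genes no UB array reached its 40th percentile, and these entered the test only through the other tissues. With the spike term 1 was higher and 4 were lower (1.15% and 3.67% of all genes were). The counts moved with how the arrays were scaled, and so did the shares of all genes. With quantile normalization 6 channel genes were called higher (9.68%, where 12.8% of all genes were). Another 13 were lower (21.0%, where 14.3% of all genes were). The medians were then -0.058 for the channel genes and 0.0047 for all genes. Centring each array on its median moved the median of all genes to 0.39 and that of the channel genes to -0.048. Again 6 were called higher (9.68%, where 32.6% of all genes were) and 13 lower (21.0%, where 7.56% of all genes were).

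**Figure D1:**
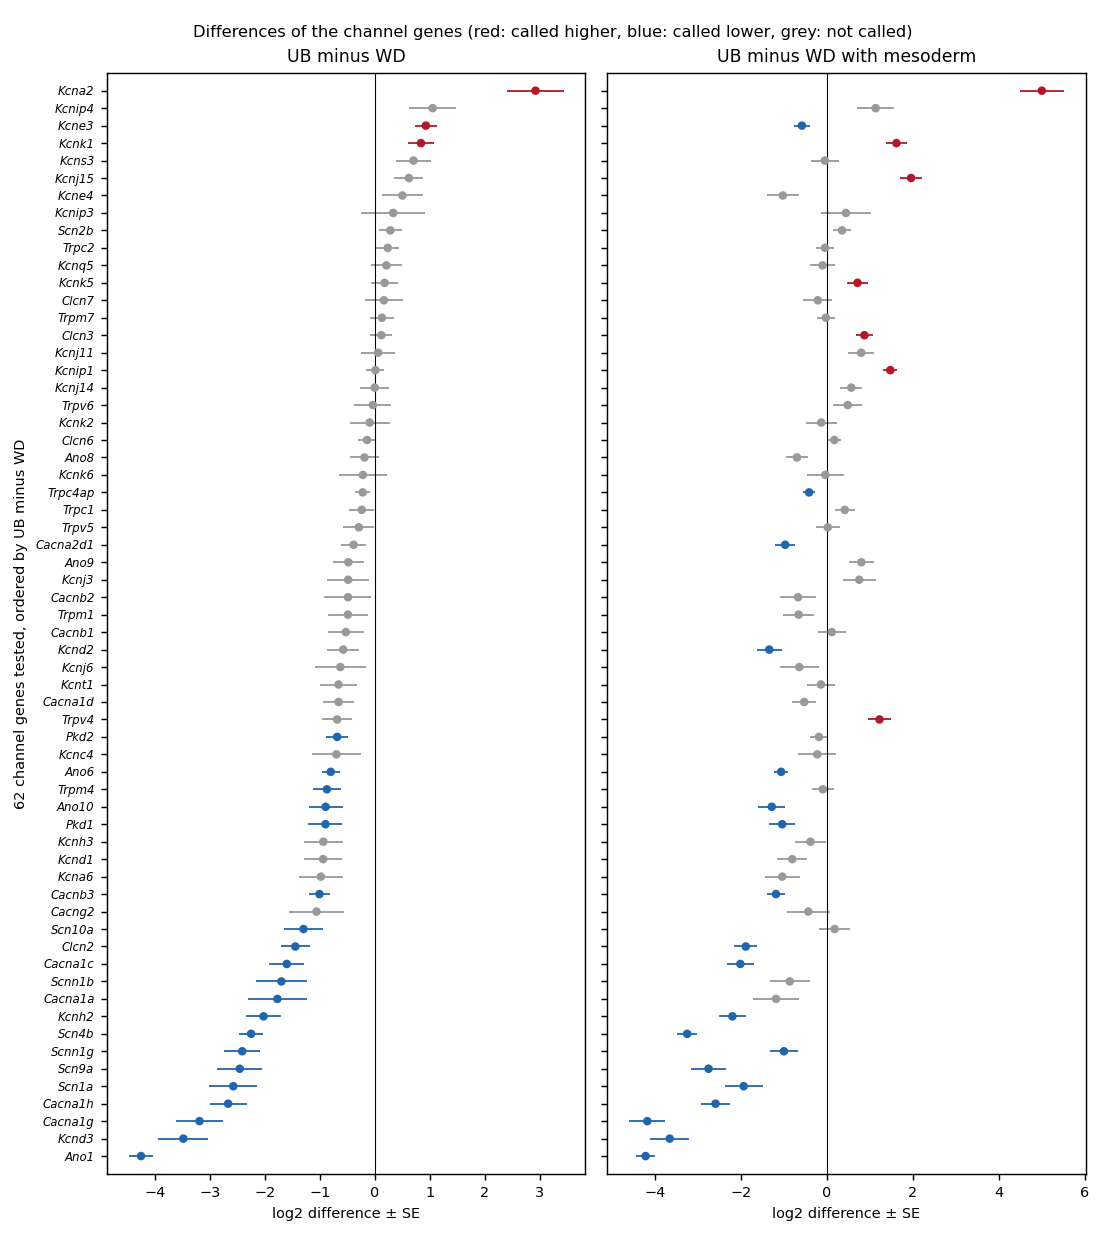
Log2 differences of the 62 tested channel genes, UB minus WD on the left and UB minus WD with mesoderm on the right, with horizontal bars for the standard error and genes ordered by UB minus WD. Red points were called higher in UB, blue points lower and grey points not called. Kcna2 stands at the top of both panels (2.93 and 5.003), and Ano1 at the bottom of both (-4.26 and -4.22). Both panels use the same UB arrays.

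The WD with mesoderm was set against the bare WD, which asks what the attached cells add. Kcne3, Kcne4 and Scn4b, all accessory subunits, were higher with mesoderm, and Trpv4, Kcnip1, Kcnj15, Kcna2, Scnn1g, Scn10a, Ano9 and Clcn3 were lower. That is 3 of 62 called higher (4.84%, where 6.47% of all genes were) and 8 lower (12.9%, where 8.24% of all genes were). The medians were -0.092 for channel genes and -0.014 for all genes. Arrays with mesoderm lay wholly above the WD arrays for 7 channel genes (15.2% of all genes) and wholly below for 16 (17.2% of all genes), 23 in all, where 32.4% of all genes did not overlap. Without WD replicate 1 the lower calls numbered 4 (6.38% of all genes were). Without replicate 3 of WD with mesoderm the higher ones numbered 1 (4.33% of all genes were). With the actin ratio as a covariate 1 was called higher and 2 lower (2.44% and 2.71% of all genes were). No array of the dimmer tissue reached its 40th percentile for Kcne4 (WD), Kcna2 and Scn10a (WD with mesoderm). With 13 duct epithelium markers tested, 11 were called lower with mesoderm and 0 higher, with a median of -1.66. The part of this lower duct signal in the 8 lower channel genes was not tested.

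In UB against WD with mesoderm, 7 channel genes were called higher (11.3%, where 13.6% of all genes were): Kcna2, Kcnj15, Kcnk1, Kcnip1, Trpv4, Clcn3 and Kcnk5. Another 19 were lower (30.6%, where 16.6% of all genes were). In 8 of these 19 no UB array reached its 40th percentile, so that they entered the test through the other tissues. With the spike term 5 were higher and 12 lower (5.08% and 9.20% of all genes were). The medians were -0.31 for the channel genes and -0.012 for all genes. The UB arrays lay wholly above those with mesoderm for 12 channel genes (24.2% of all genes) and wholly below for 25 (25.7% of all genes), 37 in all, where 49.9% of all genes did not overlap. Called in either direction were 26 channel genes, where 30.2% of all genes were. With quantile normalization 9 were called higher (14.5%, where 13.4% of all genes were) and 13 lower (21.0%, where 13.9% of all genes were). After median centring 13 were higher (21.0%, where 26.9% of all genes were) and 14 lower (22.6%, where 9.52% of all genes were). Between arrays of like spike ratio, with no test, the median over the 62 channel genes was -0.25 for UB minus replicate 3 of WD with mesoderm and -0.035 for replicates 1 and 2 of WD with mesoderm minus WD. Any pair of these comparisons has 3 arrays in common. Over all 3, 33 of the 62 genes were called at least once, and 13 showed 1 pattern: lower in UB than in both other tissues, with no call between those. They were Ano1, Ano6, Ano10, Cacnb3, Cacna1c, Cacna1g, Cacna1h, Clcn2, Kcnd3, Kcnh2, Scn1a, Scn9a and Pkd1. Of these, Cacna1c, Cacna1g, Kcnd3, Kcnh2, Scn1a and Scn9a had no UB array above its 40th percentile. They entered the test only through the tissues where they are high, so the pattern carries no weight for them. Another 4, Clcn3, Kcnip1, Kcnj15 and Trpv4, were lower in WD with mesoderm than in UB and in WD, with no call between UB and WD. The shares of all genes called at least once or with either pattern were not counted, so these counts cannot be read as high or low.

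**Figure D2:**
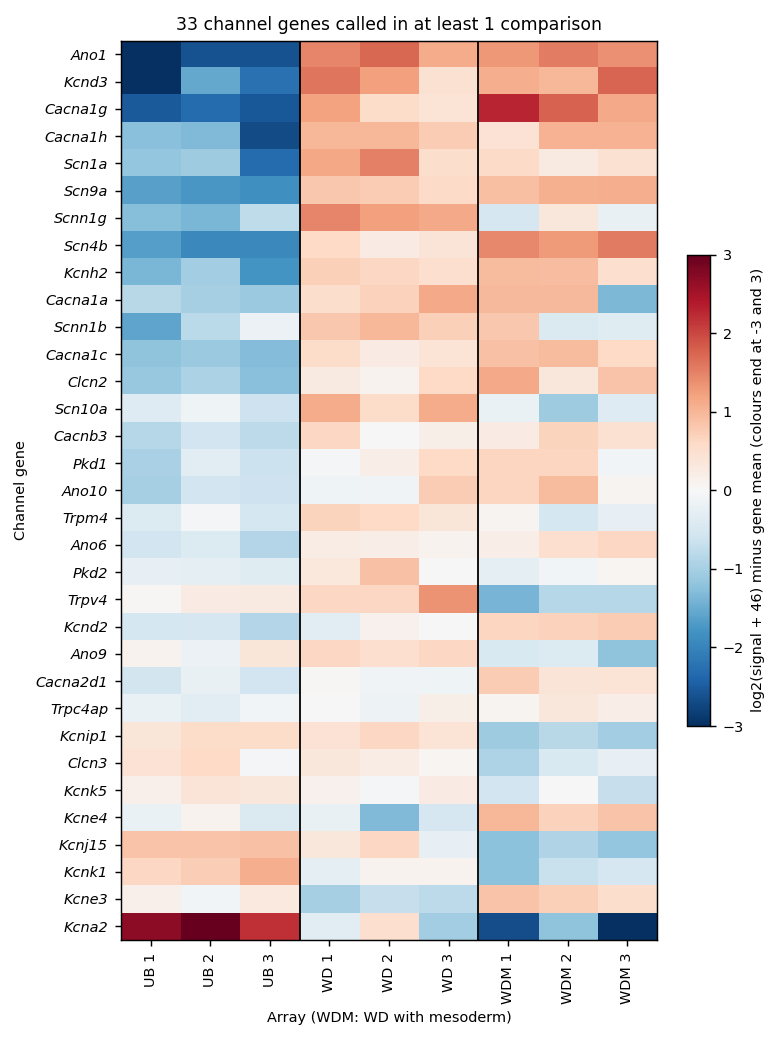
Heat map of the 33 channel genes called in at least 1 comparison on the 9 arrays (WDM, WD with mesoderm). Colour is log2(signal + 46) minus the gene's mean over the arrays, with red above and blue below it, and genes run from the lowest to the highest UB minus WD difference. Most genes in the upper rows are blue on the 3 UB arrays and red on the other 6, Kcna2 in the last row is dark red on the 3 UB arrays and blue with mesoderm, and Cacna1a is blue on replicate 3 of WD with mesoderm as on UB.

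Ano1 and Kcna2 moved furthest in opposite directions, and the 250 bases before their RefSeq gene starts (GRCr8) are shown with those of Kcnj15, another called gene with a different base composition. Capitals mark each CG dinucleotide. The windows are chr1:209329339-209329588, minus strand for Ano1, chr2:197393280-197393529, plus strand for Kcna2 and chr11:48070700-48070949, plus strand for Kcnj15.
Ano1: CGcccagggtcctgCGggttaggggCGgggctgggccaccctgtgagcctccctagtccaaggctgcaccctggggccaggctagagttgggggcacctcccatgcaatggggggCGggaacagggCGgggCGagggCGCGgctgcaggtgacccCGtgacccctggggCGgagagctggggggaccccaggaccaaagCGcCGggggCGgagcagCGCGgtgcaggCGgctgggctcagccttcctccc
Kcna2: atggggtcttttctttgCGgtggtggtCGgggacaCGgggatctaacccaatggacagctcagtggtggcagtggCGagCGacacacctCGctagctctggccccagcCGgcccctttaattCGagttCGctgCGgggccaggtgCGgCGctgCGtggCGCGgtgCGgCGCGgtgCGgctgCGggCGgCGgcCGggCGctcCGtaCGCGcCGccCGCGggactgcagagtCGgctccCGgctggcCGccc
Kcnj15: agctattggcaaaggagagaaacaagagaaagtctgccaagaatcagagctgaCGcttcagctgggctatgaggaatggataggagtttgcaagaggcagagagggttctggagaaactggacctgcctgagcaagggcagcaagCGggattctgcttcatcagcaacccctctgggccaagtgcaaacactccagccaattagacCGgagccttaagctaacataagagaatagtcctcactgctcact
The Ano1 window has 16 CG dinucleotides and 74.8% G and C, that of Kcna2 33 and 72.4%, and that of Kcnj15 3 and 50.8%. Over 27457 such windows of the RefSeq table the medians were 6 and 52.0%, with 16 or more CG dinucleotides in 25.6% and 33 or more in 3.70%. A core bound by ETS factors, GGAAGT, was on neither strand of these windows. The HNF1 core GTTAAT was absent from them as well. So was AGATAA, which GATA factors bind. Over the 48 tested channel genes with an entry, the ETS core was in 8 windows, where 19.5% of all windows have it. The HNF1 core was in 1 (6.52% of all) and the GATA core in 4 (10.1% of all). These are letter matches in 250 bases and describe no binding.

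Among the voltage-gated potassium channels, which repolarise excitable cells, 10 of 31 genes were tested. In UB against WD 1 rose and 2 fell, with mesoderm against WD 0 rose and 1 fell, and in UB against WD with mesoderm 1 rose and 3 fell. Over all genes 13.4% rose and 19.6% fell in the first comparison, 6.47% and 8.24% in the second, and 13.6% and 16.6% in the third. Kcnd3 and Kcnh2 had no UB array above the 40th percentile, and Kcna2 had none with mesoderm. They entered the test only through the other tissues, so their calls against those add no weight to the counts. Kcna2 had signals of 4298, 5555 and 3067 on the UB arrays, 494, 921 and 284 on WD and 60.5, 246 and 27.8 with mesoderm. The 3 tissues did not overlap: UB was highest and WD with mesoderm lowest, on 2 arrays there near the pseudocount or below it. The differences were 2.93 ± 0.51 (SE, adjusted p = 0.00149, limma) for UB against WD, -2.08 ± 0.51 (SE, adjusted p = 0.0197, limma) for WD with mesoderm against WD and 5.003 ± 0.51 (SE, adjusted p = 1.45e-05, limma) for UB against WD with mesoderm. The call for Kcna2 in WD with mesoderm against WD was lost without WD replicate 1 (adjusted p = 0.0524), WD replicate 2 (0.0921), WD with mesoderm replicate 3 (0.0692), in a fit of this pair only (0.0958), under the spike term (0.0766) and under the actin covariate (0.328). The second probe set of Kcna2 was dimmer and did not show the UB rise: it had 347, 307 and 451 in UB and 314, 405 and 535 in WD, a difference of -0.15 ± 0.50 (adjusted p = 0.841). It was lower with mesoderm (32.5, 81.8 and 178), -1.80 ± 0.50 against WD (adjusted p = 0.0346).

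Kcnd3, which carries a fast transient potassium current, went the other way. Its signals were 22.8, 199 and 105 in UB, 2119, 1637 and 936 in WD and 1478, 1369 and 2356 with mesoderm, so all UB arrays lay below all others. It differed by -3.49 ± 0.46 (SE, adjusted p = 0.000193, limma) in UB against WD and by -3.66 ± 0.46 (SE, adjusted p = 7.38e-05, limma) in UB against WD with mesoderm. UB replicate 1 was below the pseudocount, and the UB against WD difference was -3.90 with a pseudocount of 16 and -3.02 with 100. Its other 2 probe sets were also called lower in UB than in WD (-3.78 ± 0.37 and -2.82 ± 0.76), but the dimmest was not called in UB against WD with mesoderm (-1.37 ± 0.76, adjusted p = 0.224). Kcnd2, a close relative, was at 356, 364 and 272 in UB, 421, 589 and 536 in WD and 868, 901 and 945 with mesoderm, and this probe set was called in UB against WD with mesoderm, by -1.35 ± 0.29 (SE, adjusted p = 0.00419, limma), and not in UB against WD (-0.57 ± 0.29, adjusted p = 0.149). A dimmer probe set of Kcnd2 was called lower in UB in both (-1.25 ± 0.38, adjusted p = 0.028, and -1.19 ± 0.38, adjusted p = 0.0379). The call for Kcnd2 in UB against WD with mesoderm was lost under quantile normalization (adjusted p = 0.06). Kcnh2, the cardiac repolarising channel, had 171, 226 and 116 in UB against 883, 828 and 753 in WD and 1040.5, 1024 and 759.7 with mesoderm. UB again lay below all other arrays, by -2.03 ± 0.31 (SE, adjusted p = 0.000608, limma) against WD and -2.20 ± 0.31 (SE, adjusted p = 0.000208, limma) against WD with mesoderm. The call for Kcnh2 in UB against WD was lost under the spike term (adjusted p = 0.152). The other 6 tested genes of the class, Kcna6, Kcnc4, Kcnd1, Kcnh3, Kcnq5 and Kcns3, were called in no comparison, with UB minus WD differences from -0.98 (Kcna6) to 0.70 (Kcns3).

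Kcne proteins are small membrane proteins that change the gating of voltage-gated channels, and Kcnip proteins bind calcium and Kcnd channels. Of 8 such accessory genes, 5 were tested. Of these 1 rose and 0 fell in UB against WD, with mesoderm against WD 2 rose and 1 fell, and in UB against WD with mesoderm 1 rose and 1 fell. The shares of all genes that rose and fell were, in that order, 13.4% and 19.6%, 6.47% and 8.24%, and 13.6% and 16.6%. Kcne4 had no WD array above the 40th percentile and entered the test only through the other tissues. Its rise with mesoderm therefore adds no weight to the count. Kcne3 had signals of 1688, 1440.0 and 1872 in UB, 746, 935 and 873 in WD and 2816, 2534 and 2208 with mesoderm. The tissues did not overlap, with WD lowest and WD with mesoderm highest. The rises over WD were 0.93 ± 0.20 (SE, adjusted p = 0.00447, limma) in UB and 1.51 ± 0.20 (SE, adjusted p = 0.000386, limma) with mesoderm, and UB was lower than WD with mesoderm by -0.58 ± 0.20 (SE, adjusted p = 0.0461, limma). The call for Kcne3 in UB against WD was lost under the spike term (adjusted p = 0.0911), under the actin covariate (0.0866) and with probe sets averaged (0.144). The call for Kcne3 in WD with mesoderm against WD was lost with probe sets averaged (adjusted p = 0.226). The call for Kcne3 in UB against WD with mesoderm was lost without UB replicate 1 (adjusted p = 0.123), UB replicate 2 (0.168), UB replicate 3 (0.0598), WD with mesoderm replicate 1 (0.141), WD with mesoderm replicate 2 (0.112), under quantile normalization (0.109), under median centring (0.474), with no filter (0.0772), under the spike term (0.454) and under the actin covariate (0.0569). The result belongs to this probe set: the second one was below the filter, at 22.1, 26.0 and 132 in UB and 231, 381 and 831 in WD, and with both averaged the difference turned to -0.68 for UB against WD (adjusted p = 0.144). Kcne4 was at 892, 707 and 804 with mesoderm, above all arrays of WD (355, 141 and 286) and UB (362, 458 and 298), and rose by 1.53 ± 0.37 (SE, adjusted p = 0.0186, limma) against WD. The call for Kcne4 in WD with mesoderm against WD was lost without WD replicate 2 (adjusted p = 0.0549), WD with mesoderm replicate 1 (0.0536), WD with mesoderm replicate 3 (0.0545) and under the actin covariate (0.103).

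Kcnip1 was lower with mesoderm than in the bare duct or the bud. Its signals were 3047, 3456 and 3471 in UB, 3197, 3597 and 3110.0 in WD and 1103, 1298 and 1103 with mesoderm. UB and WD overlapped and differed by 0.011 ± 0.16 (SE, adjusted p = 0.968, limma), which places the difference near 0 without showing that they are equal. WD with mesoderm lay below both, by -1.46 ± 0.16 (SE, adjusted p = 0.000168, limma) against WD, and UB exceeded it by 1.47 ± 0.16 (SE, adjusted p = 2.56e-05, limma). A second tested probe set gave -0.69 ± 0.47 against WD (adjusted p = 0.366) and 1.499 ± 0.47 for UB against WD with mesoderm (adjusted p = 0.033). The call for Kcnip1 in WD with mesoderm against WD was lost with probe sets averaged (adjusted p = 0.0607). Kcnip4 (1.05 ± 0.43 in UB against WD, adjusted p = 0.0844) and Kcnip3 (0.34 ± 0.59, adjusted p = 0.691) were not called.

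Inward rectifiers and 2-pore leak channels hold the membrane near the potassium potential. Of 15 inward rectifier genes 5 were tested and of 11 leak channel genes 4. Of the inward rectifiers only Kcnj15 was called, and of the leak channels Kcnk1 and Kcnk5, by the probe set that stands for each gene. Kcnj15, an inward rectifier, had 1606, 1625 and 1629 in UB, 1110.5, 1368 and 729 in WD and 343, 448 and 364 with mesoderm, without overlap between tissues. The difference was 0.62 ± 0.26 (SE, adjusted p = 0.094, limma) in UB against WD, which missed the threshold, -1.34 ± 0.26 (SE, adjusted p = 0.00568, limma) with mesoderm against WD and 1.96 ± 0.26 (SE, adjusted p = 0.000142, limma) in UB against WD with mesoderm. With median centring UB against WD was called (1.08, adjusted p = 0.0106). The call for Kcnj15 in WD with mesoderm against WD was lost under the actin covariate (adjusted p = 0.19) and with probe sets averaged (0.131). The call for Kcnj15 in UB against WD with mesoderm was lost with probe sets averaged (adjusted p = 0.0632). The other probe set of Kcnj15 was below the filter. Kcnj3, Kcnj6, Kcnj11 and Kcnj14 were not called, although a dimmer probe set of Kcnj11 was lower with mesoderm than in WD (-1.31 ± 0.37, adjusted p = 0.0367).

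Kcnk1, a weak inward rectifying leak channel, ran downwards from UB (2433, 2651 and 3367) to WD (1262, 1697 and 1694) to WD with mesoderm (643, 959.8 and 1094), and the 3 sets of arrays did not overlap. UB exceeded WD by 0.84 ± 0.24 (SE, adjusted p = 0.0199, limma) and WD with mesoderm by 1.62 ± 0.24 (SE, adjusted p = 0.000274, limma). With mesoderm against WD the difference of -0.78 ± 0.24 (SE, adjusted p = 0.0518, limma) missed the threshold. The call for Kcnk1 in UB against WD was lost without UB replicate 3 (adjusted p = 0.0855), WD replicate 1 (0.071), under the spike term (0.671) and under the actin covariate (0.177). Kcnk5, a leak channel opened by alkaline pH, was at 1166, 1372 and 1329 in UB, 1148, 1019 and 1236 in WD and 688, 1054 and 622 with mesoderm. Its call in UB against WD with mesoderm was marginal, at 0.71 ± 0.24 (SE, adjusted p = 0.0483, limma). The call for Kcnk5 in UB against WD with mesoderm was lost without UB replicate 1 (adjusted p = 0.0961), UB replicate 2 (0.141), UB replicate 3 (0.121), WD replicate 1 (0.0626), WD replicate 2 (0.052), WD replicate 3 (0.0525), WD with mesoderm replicate 1 (0.121), WD with mesoderm replicate 3 (0.131), with no filter (0.0877), under the stricter filter (0.0502), in a fit of this pair only (0.063), under the spike term (0.0819) and under the actin covariate (0.0558). Kcnk2, a stretch-sensitive channel, was called in no comparison (365 ± 77.8, 394 ± 99.8 and 406 ± 94.2 in UB, WD and WD with mesoderm, SD, n = 3 each). Kcnk6 was not called by its brightest probe set, but a second one was higher in UB than with mesoderm (1.46 ± 0.48, adjusted p = 0.0435). Not called was Kcnt1, the 1 tested gene among 4 potassium channels opened by calcium or sodium.

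**Figure D3:**
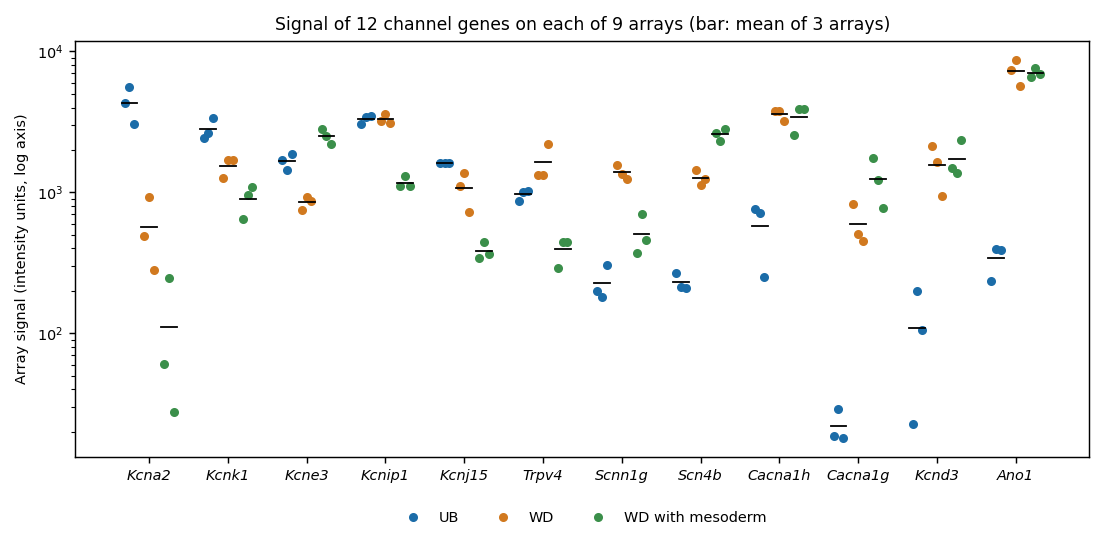
Signal of 12 channel genes on each of the 9 arrays, in intensity units on a log axis, with 3 points per tissue and a bar at their mean. Kcna2 and Kcnk1 are highest in UB, Kcne3 is highest with mesoderm, Kcnip1, Kcnj15 and Trpv4 are lowest with mesoderm, Scnn1g is highest in WD, and Scn4b, Cacna1h, Cacna1g, Kcnd3 and Ano1 are lowest in UB.

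Voltage-gated sodium channels start the action potential in nerve and muscle. Of 9 pore genes 3 were tested, and 3 were called lower in UB against WD, where 19.6% of all genes were. Scn1a and Scn9a had no UB array above the 40th percentile and so entered the test only through the tissues where they are high, which leaves their count without weight. Scn9a, a channel of sensory neurons, had 49.0, 42.2 and 37.2 in UB, around the pseudocount, against 471, 459.6 and 397 in WD and 507, 572 and 586 with mesoderm. The differences were -2.46 ± 0.41 (SE, adjusted p = 0.00102, limma) from WD and -2.76 ± 0.41 (SE, adjusted p = 0.000289, limma) from WD with mesoderm. Scn1a, the main pore of fast inhibitory neurons, had 133, 145 and 34.7 in UB, 850.3, 1090.1 and 531 in WD and 551, 432 and 501 with mesoderm, with UB below all other arrays by -2.58 ± 0.44 (SE, adjusted p = 0.00126, limma) against WD and -1.94 ± 0.44 (SE, adjusted p = 0.0062, limma) against WD with mesoderm. Scn10a, another channel of sensory neurons, was highest in WD (996, 664 and 997) and lower in both UB (326, 396 and 269.9) and WD with mesoderm (376, 186 and 323), which overlapped. Against WD it differed by -1.30 ± 0.36 (SE, adjusted p = 0.0183, limma) in UB and -1.47 ± 0.36 (SE, adjusted p = 0.0185, limma) with mesoderm. The call for Scn9a in UB against WD was lost under the spike term (adjusted p = 0.0868). The call for Scn1a in UB against WD was lost under the spike term (adjusted p = 0.115). The call for Scn1a in UB against WD with mesoderm was lost under quantile normalization (adjusted p = 0.0606) and under the spike term (0.0786). The call for Scn10a in UB against WD was lost without UB replicate 1 (adjusted p = 0.0595), UB replicate 3 (0.0659), WD replicate 1 (0.0625), WD replicate 3 (0.0514), under quantile normalization (0.161), under median centring (0.0915), under the spike term (0.245) and under the actin covariate (0.115). The call for Scn10a in WD with mesoderm against WD was lost without WD replicate 1 (adjusted p = 0.0686), WD replicate 3 (0.0502), WD with mesoderm replicate 2 (0.0603) and under the actin covariate (0.211).

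Neuronal markers moved in both directions in the same pools. Of 11 such genes on the array 7 were tested. Called higher in UB than in WD were 2 (13.4% of all genes were), and 1 was lower (19.6% of all genes were). Summed signals were 10819 to 13184 in UB, 4158 to 5953 in WD and 4938 to 6692 with mesoderm. The higher ones were Gap43, a protein of growing axons that made most of the UB sum (8398 ± 1417, SD, n = 3), and Elavl4, a neuronal RNA-binding protein. Stmn2, a tubulin-binding protein of neurons, was lower in UB (-1.22 ± 0.42, adjusted p = 0.0467), as the sodium channels were, and the other 4 tested, Elavl3, Nefm, Th and Prph, had lower means in UB without a call. Snap25, a protein of synaptic vesicle release, had means of 14.04, 30.1 and 87.2 in UB, WD and WD with mesoderm, and Tubb3, a neuronal tubulin, 239.6, 331 and 490.0, both below the filter. The part of neurons in the sodium channel results was not tested. Of the glial and neural crest list 1 of 5 genes on the array was tested, and it was not called. Skeletal muscle markers summed to 807 to 1090.1 in UB, 1531 to 3138 in WD and 4976 to 6523 with mesoderm, of which Des is also a smooth muscle gene.

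Scn4b, a beta subunit that modifies sodium channel gating, was called in 3 of 3 comparisons. Its signals were 268, 213 and 209.8 in UB, 1449.5, 1125 and 1239 in WD and 2624, 2319 and 2835 with mesoderm, and the tissues did not overlap. No UB array reached its 40th percentile. UB was lower than WD by -2.25 ± 0.23 (SE, adjusted p = 2.35e-05, limma) and than WD with mesoderm by -3.26 ± 0.23 (SE, adjusted p = 5.63e-07, limma), and WD with mesoderm exceeded WD by 1.01 ± 0.23 (SE, adjusted p = 0.0118, limma). The call for Scn4b in WD with mesoderm against WD was lost without WD with mesoderm replicate 3 (adjusted p = 0.0518) and under the actin covariate (0.0867). Smooth muscle markers ran in the same order, with sums of 2973 to 3337 in UB, 7535 to 8608 in WD and 22509 to 28383 with mesoderm, and mesenchyme markers did so too; their part in the Scn4b result was not tested. Scn2b, the other tested beta subunit, did not pass in any comparison (0.28 ± 0.21 in UB against WD, adjusted p = 0.336).

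ENaC takes up sodium across tight epithelia such as the mature collecting duct. Both tested subunits had their highest mean in WD. Scnn1g, the gamma subunit, had 1574, 1350.0 and 1251 in WD, 198, 181 and 303 in UB and 369.5, 702 and 457 with mesoderm, and the 3 tissues did not overlap. No UB array reached its 40th percentile. It differed by -2.41 ± 0.33 (SE, adjusted p = 0.000243, limma) in UB and by -1.41 ± 0.33 (SE, adjusted p = 0.0138, limma) with mesoderm, each against WD, and by -1.004 ± 0.33 (SE, adjusted p = 0.0401, limma) in UB against WD with mesoderm. The call for Scnn1g in UB against WD was lost under the spike term (adjusted p = 0.0666). The call for Scnn1g in WD with mesoderm against WD was lost without WD replicate 1 (adjusted p = 0.0589), under the actin covariate (0.182) and with probe sets averaged (0.0721). The call for Scnn1g in UB against WD with mesoderm was lost without UB replicate 1 (adjusted p = 0.123), UB replicate 2 (0.121), WD replicate 1 (0.0591), WD replicate 2 (0.0546), WD with mesoderm replicate 2 (0.157), WD with mesoderm replicate 3 (0.0586), under quantile normalization (0.353), under median centring (0.176), with no filter (0.0757), in a fit of this pair only (0.0878), under the spike term (0.297) and with probe sets averaged (0.106). The other probe set of Scnn1g was not called (-0.83 ± 0.47 in UB against WD, adjusted p = 0.198). Scnn1b, the beta subunit, had 710.3, 817 and 663 in WD and 97.9, 199 and 336 in UB, and differed there by -1.70 ± 0.46 (SE, adjusted p = 0.0166, limma). With mesoderm its signals of 713, 274 and 291 overlapped both other tissues, and neither comparison was called. The call for Scnn1b in UB against WD was lost without UB replicate 1 (adjusted p = 0.0729), WD replicate 2 (0.055), under quantile normalization (0.0836) and under the spike term (0.512).

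Of 10 pore genes of the voltage-gated calcium channels 5 were tested. Called lower in UB were 4 against WD (19.6% of all genes were) and 3 against WD with mesoderm (16.6% of all genes were), while Cacna1d was not called. Cacna1a, Cacna1c and Cacna1g had no UB array above the 40th percentile, so the filter admitted them only through the tissues where they are high, and the counts carry no weight for them. With mesoderm against WD limma called 0 of 5, with 1 at an unadjusted p under 0.05. Cacna1h and Cacna1g are T-type channels, which open near the resting potential. Cacna1h had 758, 718 and 251 in UB, 3760.1, 3773 and 3190.1 in WD and 2558, 3885 and 3889.9 with mesoderm, differing by -2.67 ± 0.34 (SE, adjusted p = 0.000138, limma) from WD and -2.60 ± 0.34 (SE, adjusted p = 9.9e-05, limma) from WD with mesoderm. Its second, dimmer probe set was not called (-0.59 ± 0.51 in UB against WD, adjusted p = 0.401). Cacna1g had 18.8, 28.9 and 18.2 in UB, below the pseudocount on all 3 arrays, 822, 505 and 452 in WD and 1760.5, 1218 and 777 with mesoderm. The differences were -3.19 ± 0.42 (SE, adjusted p = 0.000212, limma) and -4.19 ± 0.42 (SE, adjusted p = 1.27e-05, limma), and their size turned on the pseudocount: UB against WD was -3.97 with 16 and -2.47 with 100. The call for Cacna1g in UB against WD was lost under the spike term (adjusted p = 0.108).

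Cacna1c, the L-type pore of heart and smooth muscle, was at 150.1, 163 and 137 in UB, 611, 486 and 554 in WD and 788, 823 and 640.4 with mesoderm. UB lay below all other arrays, by -1.60 ± 0.32 (SE, adjusted p = 0.00341, limma) against WD and -2.02 ± 0.32 (SE, adjusted p = 0.000526, limma) against WD with mesoderm. The call for Cacna1c in UB against WD was lost under quantile normalization (adjusted p = 0.0653), under the spike term (0.265) and with probe sets averaged (0.0564). Cacna1a, the P/Q-type pore of nerve terminals, had 267, 235 and 211 in UB and 759, 859.9 and 1191 in WD, a difference of -1.77 ± 0.54 (SE, adjusted p = 0.0269, limma). With mesoderm it had 1058, 1050.0 and 174, so replicate 3, the array whose spike ratio was like that of UB, lay with the UB arrays and the others with WD. The call for Cacna1a in UB against WD was lost without UB replicate 1 (adjusted p = 0.0615), UB replicate 2 (0.0581), UB replicate 3 (0.0695), WD replicate 2 (0.0643), WD replicate 3 (0.0766), under quantile normalization (0.0739) and under the spike term (0.649). With the spike term the difference turned to 0.55. A second probe set of Cacna1a differed by -1.10 ± 0.39 in UB against WD (adjusted p = 0.0536), which was not called, and by -1.23 ± 0.39 in UB against WD with mesoderm (adjusted p = 0.0383). On it replicate 3 of WD with mesoderm (359) lay above the UB arrays (220.3, 142 and 260.1). Cacna1d, the other L-type pore tested, was not called (-0.66 ± 0.28 in UB against WD, adjusted p = 0.0909), though it was without WD replicate 3 (adjusted p = 0.0353).

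Accessory calcium channel subunits carry the pores to the membrane and set their gating. Of 14 genes 5 were tested. Cacnb3, a beta subunit, was at 1252, 1529 and 1310.4 in UB, 3559.6, 2316 and 2594 in WD and 2740.2, 3639 and 3154 with mesoderm, with UB below all other arrays by -1.01 ± 0.20 (SE, adjusted p = 0.00318, limma) against WD and -1.19 ± 0.20 (SE, adjusted p = 0.000783, limma) against WD with mesoderm. The call for Cacnb3 in UB against WD was lost under median centring (adjusted p = 0.0952), under the spike term (0.181) and under the actin covariate (0.0758). Cacna2d1, an extracellular subunit, lay in steps from UB (615, 789 and 604) through WD (949.5, 853 and 847) to WD with mesoderm (1617, 1219 and 1247), but only the outer pair was called, by -0.97 ± 0.23 (SE, adjusted p = 0.00777, limma). The call for Cacna2d1 in UB against WD with mesoderm was lost under quantile normalization (adjusted p = 0.0543), under median centring (0.0784) and under the spike term (0.134). Cacnb1, Cacnb2 and Cacng2 were not called in any comparison, and Cacng2 had a wide WD spread (920.3, 1156 and 3078).

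Anoctamins include calcium-activated chloride channels and proteins that move lipids across the membrane. Ano1, a chloride channel of secretory epithelia and smooth muscle, was the channel gene with the largest fall in UB. It had 233, 395 and 392 in UB, 7369, 8755 and 5734 in WD and 6553, 7684 and 6881 with mesoderm, so that the UB arrays lay far below the others and the others overlapped. The difference was -4.26 ± 0.22 (SE, adjusted p = 1.11e-07, limma) from WD, a 19.1-fold lower value on this scale, and -4.22 ± 0.22 (SE, adjusted p = 4.54e-08, limma) from WD with mesoderm. Both calls were kept in 21 of 21 alternatives. With mesoderm against WD it was -0.031 ± 0.22 (SE, adjusted p = 0.94, limma). Against replicate 3 of WD with mesoderm alone, the array of like spike ratio, UB stood at -4.20. Ano6, a scramblase, had 4379, 4851 and 3493 in UB, 7637, 7420.4 and 7031 in WD and 7494, 9252 and 10040.0 with mesoderm, and was lower in UB by -0.80 ± 0.16 (SE, adjusted p = 0.0033, limma) and -1.07 ± 0.16 (SE, adjusted p = 0.000321, limma). The call for Ano6 in UB against WD was lost under median centring (adjusted p = 0.288), under the spike term (0.0656) and under the actin covariate (0.0798). Ano10, of less settled function, was lower in UB too (-0.90 ± 0.31 against WD, adjusted p = 0.0461, and -1.29 ± 0.31 against WD with mesoderm, adjusted p = 0.00852). The call for Ano10 in UB against WD was lost without UB replicate 1 (adjusted p = 0.154), UB replicate 2 (0.0701), UB replicate 3 (0.0793), WD replicate 2 (0.0543), WD replicate 3 (0.157), WD with mesoderm replicate 1 (0.0513), under quantile normalization (0.259), under median centring (0.249), with no filter (0.0682), with no variance trend (0.0556) and under the spike term (0.888). The call for Ano10 in UB against WD with mesoderm was lost under the spike term (adjusted p = 0.271). Ano9 was lower with mesoderm (521, 545 and 293) than in WD (1164, 1068 and 1167), by -1.28 ± 0.29 (SE, adjusted p = 0.0119, limma), with UB between them (802, 653 and 969). The call for Ano9 in WD with mesoderm against WD was lost under the actin covariate (adjusted p = 0.0723). Ano8 was not called.

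Of 7 genes of the CLC family, chloride channels of the plasma membrane and chloride-proton exchangers of endosomes, 4 were tested. Clcn2, a plasma membrane channel, had 393, 452 and 355 in UB, 1121, 995 and 1417 in WD and 2067, 1179 and 1685 with mesoderm. UB lay below all other arrays, by -1.45 ± 0.26 (SE, adjusted p = 0.00194, limma) and -1.89 ± 0.26 (SE, adjusted p = 0.000187, limma). The call for Clcn2 in UB against WD was lost under the spike term (adjusted p = 0.119). Clcn3, an endosomal exchanger, had 10227, 11419 and 7390.5 in UB and 9622, 8836 and 7904 in WD, which overlapped, and 3965, 5486 and 6394 with mesoderm, below both. It differed by -0.75 ± 0.20 (SE, adjusted p = 0.0284, limma) with mesoderm against WD and by 0.87 ± 0.20 (SE, adjusted p = 0.00664, limma) in UB against WD with mesoderm. Of its 4 probe sets, 3 were called lower with mesoderm than in WD and 4 higher in UB than with mesoderm. The call for Clcn3 in WD with mesoderm against WD was lost without WD replicate 1 (adjusted p = 0.091), WD replicate 2 (0.0794), WD with mesoderm replicate 1 (0.0837), WD with mesoderm replicate 2 (0.0585), under median centring (0.151), with no variance trend (0.0707) and under the actin covariate (0.601). The call for Clcn3 in UB against WD with mesoderm was lost under the spike term (adjusted p = 0.233). Clcn6 and Clcn7, of endosomes and lysosomes, were not called, and Clcn5, an endosomal exchanger of the proximal tubule, was below the filter.

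TRP channels pass cations in response to heat, stretch, osmotic or chemical signals. Of 15 pore genes in the Trpc, Trpm and Trpv groups, 8 were tested. Trpv4, which opens with cell swelling, had 1335, 1337 and 2222 in WD, 872, 1014 and 1026 in UB and 293, 446 and 446 with mesoderm, with no overlap. It was lower with mesoderm than in WD by -1.91 ± 0.28 (SE, adjusted p = 0.000825, limma) and higher in UB than with mesoderm by 1.22 ± 0.28 (SE, adjusted p = 0.00611, limma). UB against WD gave -0.69 ± 0.28 (SE, adjusted p = 0.0808, limma), which was not called. The call for Trpv4 in UB against WD with mesoderm was lost under the spike term (adjusted p = 0.133). Trpm4, a sodium-passing channel opened by calcium, was at 684, 889 and 629 in UB, 1497, 1423 and 1198 in WD and 981, 624 and 774 with mesoderm. It was lower in UB than in WD by -0.87 ± 0.25 (SE, adjusted p = 0.0215, limma), and with mesoderm against WD the difference of -0.77 ± 0.25 (SE, adjusted p = 0.064, limma) missed the threshold. The call for Trpm4 in UB against WD was lost without UB replicate 1 (adjusted p = 0.078), UB replicate 3 (0.0765), WD replicate 1 (0.0673), WD replicate 2 (0.0579), under quantile normalization (0.153), under median centring (0.251), under the spike term (0.363) and under the actin covariate (0.178). Trpm7, a channel fused to a kinase and needed for magnesium balance, overlapped in all tissues (6444, 5163 and 4995 in UB, 6838, 4018 and 4599 in WD and 6420.3, 4326 and 6319 with mesoderm). Trpc1, Trpc2, Trpm1, Trpv5 and Trpv6 were not called either. Trpc4ap, which the symbol rule takes in, encodes a binding partner and no channel. It was lower in UB than in WD with mesoderm by -0.42 ± 0.14 (SE, adjusted p = 0.0462, limma). The call for Trpc4ap in UB against WD with mesoderm was lost without UB replicate 1 (adjusted p = 0.127), UB replicate 2 (0.163), UB replicate 3 (0.0585), WD replicate 1 (0.0589), WD with mesoderm replicate 2 (0.16), WD with mesoderm replicate 3 (0.0797), under median centring (0.868), with no filter (0.0569), with no variance trend (0.0905), under the spike term (0.269) and under the actin covariate (0.0643).

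The polycystins, a large receptor-like protein and a cation channel that act together at the primary cilium, were both lower in UB than in WD, with calls near the threshold. Pkd2 was at 4964, 4821 and 4592 in UB, 7295, 10870.5 and 5826 in WD and 4875, 5505 and 6080.3 with mesoderm, and differed by -0.69 ± 0.20 (SE, adjusted p = 0.0231, limma) in UB against WD. Pkd1 was at 355, 589 and 455 in UB, 711, 866 and 1149 in WD and 1177, 1186 and 695 with mesoderm, and differed by -0.90 ± 0.31 (SE, adjusted p = 0.0459, limma) from WD and -1.04 ± 0.31 (SE, adjusted p = 0.0266, limma) from WD with mesoderm. The call for Pkd2 in UB against WD was lost without UB replicate 1 (adjusted p = 0.0592), UB replicate 2 (0.0525), UB replicate 3 (0.0681), WD replicate 2 (0.0659), under median centring (0.529), with no variance trend (0.0507), under the spike term (0.213), under the actin covariate (0.222) and with probe sets averaged (0.123). The call for Pkd1 in UB against WD was lost without UB replicate 1 (adjusted p = 0.165), UB replicate 3 (0.0993), WD replicate 2 (0.0879), WD replicate 3 (0.134), WD with mesoderm replicate 2 (0.0544), under quantile normalization (0.293), under median centring (0.26), with no filter (0.0756), under the spike term (0.898) and under the actin covariate (0.0613). The call for Pkd1 in UB against WD with mesoderm was lost without UB replicate 1 (adjusted p = 0.116), UB replicate 3 (0.0622), WD with mesoderm replicate 1 (0.0866), WD with mesoderm replicate 2 (0.0993), under quantile normalization (0.118), under median centring (0.0894) and under the spike term (0.486). The second probe set of Pkd2 was not called (-0.81 ± 0.74, adjusted p = 0.427), and Pkd2l2 was below the filter. Of 13 other tested genes of the cilium and of polycystic kidney disease, 1 rose (Ift20, 0.38 ± 0.13, adjusted p = 0.0472) and 1 fell (Tsc1, -0.49 ± 0.16, adjusted p = 0.0411) in UB against WD, with a median of -0.24 (13.4% and 19.6% of all genes, median -0.075). With mesoderm against WD 1 fell (Nphp4, -1.02 ± 0.27, adjusted p = 0.0267), and in UB against WD with mesoderm limma called 0 of 13, with 1 at an unadjusted p under 0.05.

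Channels and ion carriers outside the symbol rule were read against the same shares of all genes: 13.4% higher and 19.6% lower in UB against WD, 6.47% and 8.24% with mesoderm against WD, and 13.6% and 16.6% in UB against WD with mesoderm, with medians of -0.075, -0.014 and -0.012. Of 29 tested genes in a list of other channels, 4 rose and 11 fell in UB against WD (median -0.62), 1 rose and 8 fell with mesoderm against WD (median -0.16), and 3 rose and 6 fell in UB against WD with mesoderm (median -0.25). The calcium-activated potassium channel Kcnma1 was lower in UB than in WD (-2.43 ± 0.34, adjusted p = 0.00031) and so was the stretch-gated channel Piezo1 (-1.28 ± 0.15, adjusted p = 7.3e-05). The calcium release channel Itpr3 was higher in UB than in WD (0.83 ± 0.18, adjusted p = 0.00519) and lower with mesoderm (-1.16 ± 0.18, adjusted p = 0.00124). Ryr3, of the same function, was lower in both UB (-2.18 ± 0.27, adjusted p = 0.000124) and WD with mesoderm (-2.13 ± 0.27, adjusted p = 0.000333) than in WD.

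Of 22 tested ion pumps and carriers, 1 rose and 7 fell in UB against WD (median -0.42), 2 rose and 3 fell with mesoderm against WD (median -0.048), and 2 rose and 6 fell in UB against WD with mesoderm (median -0.58). Atp1b3, a beta subunit of the sodium pump, rose in UB (1.21 ± 0.14, adjusted p = 6.19e-05), and Slc4a4, a sodium bicarbonate carrier, fell (-1.09 ± 0.15, adjusted p = 0.000285). Of 15 tested regulators of channels, 0 rose and 8 fell in UB against WD (median -0.46), 4 rose and 4 fell with mesoderm against WD (median 0.055), and 1 rose and 7 fell in UB against WD with mesoderm (median -0.27); Trpc4ap is in this list as well. Nedd4l, which marks ENaC for removal from the membrane, was lower than in WD both in UB (-0.90 ± 0.21, adjusted p = 0.00759) and with mesoderm (-1.04 ± 0.21, adjusted p = 0.00582). Sgk1, a kinase that restrains Nedd4l, was higher with mesoderm (2.12 ± 0.28, adjusted p = 0.000499). Dpp6, a partner of Kcnd channels, was lower in UB than in WD (-1.65 ± 0.26, adjusted p = 0.000792), as Kcnd3 was.

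Markers of other cell types moved with the same tissues. Over all genes 19.6% were called lower in UB than in WD, and 6.47% were called higher with mesoderm than in WD. In UB against WD, 10 of 10 mesenchyme genes were called lower, as were 5 of 6 tested genes of coelomic mesoderm (1 was higher), 5 of 9 endothelial (1 higher), 5 of 5 red cell, 5 of 7 macrophage and 4 of 5 smooth muscle genes. With mesoderm against WD, 8 of 9 endothelial, 6 of 10 mesenchyme, 3 of 5 smooth muscle, 2 of 6 coelomic (1 was lower) and 1 of 7 macrophage genes were higher, and 0 of 5 red cell genes. Summed endothelial signal was 3198 to 4142 in UB, 4795 to 6172 in WD and 42590.2 to 43400.3 with mesoderm, and summed red cell signal 2785 to 7681, 77651 to 131738 and 75739 to 120342. Coelomic mesoderm summed to 5886 to 9081, 95244 to 105817 and 134870 to 141493, macrophages to 1075 to 1658, 3416 to 5647 and 5944 to 9330. The part of these cells in the channel genes that were lower in UB was not tested.

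Of the 60 calls of channel genes over the 3 comparisons, 20 were kept in every alternative in which the gene was tested. They were Ano1, Cacna1h, Kcna2, Kcnd3 and Scn4b in UB against WD, Trpv4 in WD with mesoderm against WD, and, in UB against WD with mesoderm, Ano1, Ano6, Cacna1c, Cacna1g, Cacna1h, Cacnb3, Clcn2, Kcna2, Kcnd3, Kcnh2, Kcnip1, Kcnk1, Scn4b and Scn9a. Among these, Kcnd3 and Scn4b in UB against WD had no UB array above its 40th percentile. In UB against WD with mesoderm that held for Cacna1c, Cacna1g, Kcnd3, Kcnh2, Scn4b and Scn9a. There Kcna2 had no array with mesoderm above it. The filter admitted these genes only through the tissues where they are high, so being kept adds no weight to their calls. No alternative put a dimmer probe set in place of the brightest one. In UB against WD 1 tested probe set of Kcna2 and 1 of Cacna1h were not called. In UB against WD with mesoderm 1 of Cacna1h and 1 of Kcnd3 were not called. With the spike ratio as a term, 1 channel gene was called higher and 4 lower in UB against WD (1.15% and 3.67% of all genes). UB and WD arrays differ in that ratio without exception, so the term can be set only through replicate 3 of WD with mesoderm, which leaves it little precision.

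**Figure D4:**
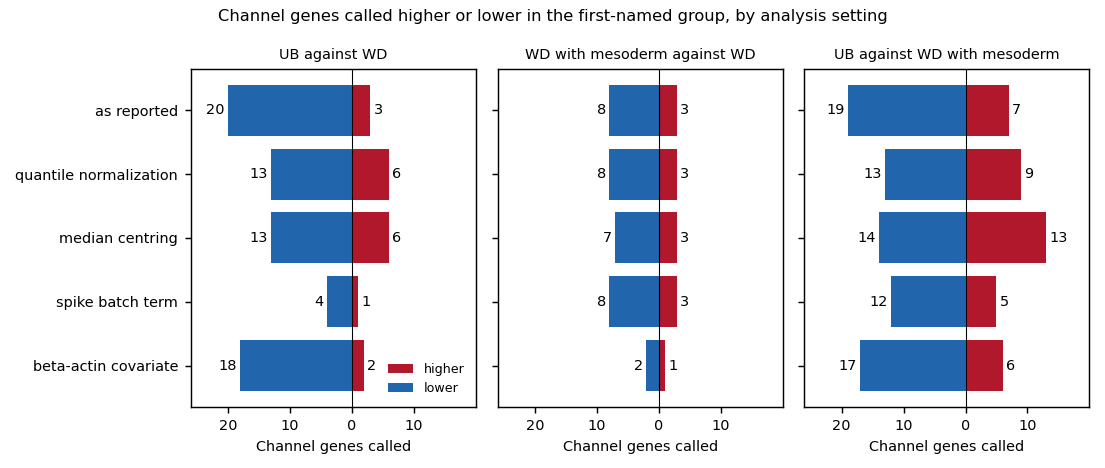
Number of channel genes called higher (red, to the right) or lower (blue, to the left) in the first-named tissue of each comparison, as reported and under 4 other settings. In UB against WD the lower calls number 20 as reported, 13 with either other scaling, 4 with the spike batch term and 18 with the beta-actin covariate. The lower calls outnumber the higher ones in every setting plotted (by 14 to 13 with median centring in UB against WD with mesoderm). As reported, all genes lean lower too: 19.6% lower and 13.4% higher in UB against WD. The shares are 8.24% and 6.47% in WD with mesoderm against WD, and 16.6% and 13.6% in UB against WD with mesoderm. After median centring, 7.56% of all genes are lower and 32.6% higher in UB against WD. With the spike batch term 3.67% of all genes are lower there, and with the beta-actin covariate 11.3%. Of the 20 lower genes as reported, 9 had no UB array above its 40th percentile.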

How the data were processed

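Biotin-labelled RNA from each pool was hybridised to 1 Affymetrix array, per the labels' protocols. The authors deposited 1 table, with the intensity of 31099 probe sets on every array. It was made with GCOS, per the submitters' processing notes. The version and summary method were not given in the sources used here. Arrays share a trimmed mean of 2501 in their values (2% off each end), so each difference is relative to other genes. Samples are labelled as biological replicates, and p-values measure the spread between these pools. The number of arrays limits the precision.

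The platform annotation gives 1 symbol to 20826 probe sets, several to 436 and none to 9780, and 57 are controls. By Entrez ID 20758 matched the GRCr8 gene table. The probe set of highest mean stands for its gene. The fit used limma 3.58.1 (R 4.3.3) on log2(intensity + 46); 46 is the 10th percentile over the whole table, and it shrinks changes of dim genes. Probe sets above the array's 40th percentile on 3 or more arrays entered 1 model of tissue over 9 arrays with a variance trend (residual df 6, prior df 6.08), and p-values were adjusted by Benjamini-Hochberg over 20330 probe sets. On data simulated for UB against WD over 20330 probe sets, 32% of 100 log2 changes of 1 and 85% of 100 of 2 were called, and 8.59% of 128 calls were false. Only these probe sets were changed, with normal noise, while 33.0% of all genes were called in the real UB against WD fit. The simulated shares therefore need not hold for these data.

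Named genes are the 10 largest rises and falls per comparison among called members, a fixed list of kidney and widely studied channels, and up to 4 called genes of each other list. Other genes were named after their values were seen: Ano10, Scn10a in UB against WD, other members listed as called or not called, and the neuronal markers. The members and lists were chosen with earlier results of these data known. Alternatives changed the scaling, pseudocount, filter, variance model or samples of the fit, added the replicate block, a term for arrays with a spike ratio above 2 or the log2 beta-actin ratio, averaged a gene's probe sets, or left out 1 array. Promoter windows are from RefSeq (GRCr8), with an entry for 48 of 62 tested channel genes.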

Additional observations from a re-analysis of the deposited data

How the results depend on the processing

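Counts of channel genes called moved by more than 1.5 times as follows. In UB against WD, quantile normalization and median centring each gave 6 higher and 13 lower, the spike batch term 1 higher and 4 lower, and the filter at the 60th percentile, which left 24 channel genes tested, 8 lower. In WD with mesoderm against WD that filter gave 5 lower (9.88% of all genes). The beta-actin covariate gave 1 higher and 2 lower there (2.44% and 2.71% of all genes). In UB against WD with mesoderm the stricter filter gave 9 lower (15.5% of all genes), median centring 13 higher (26.9%) and the spike batch term 12 lower (9.20%). Leaving out 1 array at a time gave 2 to 3 higher and 13 to 21 lower in UB against WD, 1 to 3 and 4 to 9 in WD with mesoderm against WD, and 6 to 7 and 15 to 19 in UB against WD with mesoderm. The lowest of these were 13 without UB replicate 1, 4 without WD replicate 1 and 1 higher without replicate 3 of WD with mesoderm. The sign turned for Cacna1a in UB against WD with the spike batch term (0.55) and for Kcne3 with the mean of all probe sets (-0.68). The cause was not tested, apart from the smaller number of genes under the stricter filter. Of the 60 calls, 60 were kept with either other pseudocount, 54 without a filter, 56 without a variance trend, 57 when only the compared pair of groups was fitted, 47 with either other scaling, 41 with the beta-actin covariate, 51 with the mean of all probe sets and 31 with the spike batch term. The labels give the same replicate numbers in each tissue, but same-numbered arrays did not deviate together (r of their deviations from -0.35 to 0.28). With the replicate block 3 channel genes were higher and 18 lower in UB against WD, 3 and 9 in WD with mesoderm against WD, and 6 and 16 in UB against WD with mesoderm, and 54 of the 60 calls were kept. Lost with it were Pkd1 and Ano10 in UB against WD and Kcnk5, Scnn1g, Trpc4ap and Kcne3 in UB against WD with mesoderm. Signal near background limits the 55 channel genes that no array put above its 40th percentile.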
